A study of Homo sapiens with 4 samples.

Results

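Among the N6-methyladenosine (m6A) sites mapped on chromatin-associated RNA of K562 cells, 9 of the 275 listed sites lay in transcripts of 5 genes whose proteins act in pre-mRNA splicing or in the exon junction complex: CCNL2, DDX17, PNISR, ACIN1 and CASC3. A site was counted when its position and strand fell inside the span of the gene in hg38. CCNL2 and DDX17 held 3 sites each, and PNISR, ACIN1 and CASC3 held 1 site each. The genes were chosen by the first and second m6A levels in the deposited table, since some of their sites are among its highest, and by the known function of their proteins. Their levels are therefore given as a description, without a test.

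The experiment comprised 4 libraries of rRNA-depleted, chromatin-associated RNA from wild-type K562 cells, a line derived from human chronic myeloid leukaemia. There were 2 RNA sources, the input and the RNA recovered with purified RBFOX2 protein, and each was sequenced with and without MjDim1 treatment, with 1 library per condition. In m6A-SAC-seq, the enzyme MjDim1 puts an allyl group on m6A, iodine converts it, and reverse transcription of the product leaves mutations whose frequency reads out methylation. The deposited table gives 2 m6A levels in percent for each site, called here the first and the second level, without naming their libraries. It gives no read counts, so the depth behind a level is unknown and no interval can be set on it. A difference between the levels also cannot be compared with the spread between libraries. The coverage limit in the methods was only a few reads, so even a high level or a wide gap may rest on few reads. The labels give the cell type as a hepatoma line, and the table holds no expression values with which the cell type could be checked. The paper describes the pulldown as made with purified protein, whereas the library titles read RBFOX2 IP. With added protein, the pulldown does not show which RNAs met RBFOX2 inside the cells.

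Most human pre-mRNAs are spliced while they are still on chromatin, and many genes for splicing factors regulate their own output through introns that stay in the transcript or exons that lead to its decay. After splicing, the exon junction complex sits on the mRNA upstream of each exon junction, and it is known to keep m6A out of the exon sequence close to junctions. The methyltransferase METTL3–METTL14 methylates adenines in DRACH, a 5-mer with a purine before the A and a C after it, any first base but C and any last base but G, often in long exons and near stop codons. RBFOX2 is a splicing regulator that binds UGCAUG and its core GCAUG.

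The sequences of all 9 sites are shown because the sites differ in motif class and in how unique their sequence is. Each line gives 29 nt of hg38 on the strand of the RNA, written 5′ to 3′. The 5-mer around the site is in capitals, and its middle A is the listed adenine.
CCNL2, position 1391271: ucucugcacuauGGAUUuugagcauuuag
CCNL2, position 1391219: agugacuccaguAGACAuuuucuuucuga
CCNL2, position 1386872: cucuccacucccCGACUgauacucaauua
DDX17, position 38490006: guauuagcauguGAACUguugacuccacc
DDX17, position 38488491: cuucacagugguUUACCacuuuguucuau
DDX17, position 38483570: uuaagacuugaaAGACUuguagaugugug
PNISR, position 99422849: acucuguuucccAGACCggagugcagugg
ACIN1, position 23068435: acuguucuggagAGACUuguauugagcaa
CASC3, position 40163719: gccggucuggugAGACUguuaagcaugag

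CCNL2 encodes cyclin L2, a nuclear cyclin with an arginine/serine-rich region that partners CDK11 kinases and takes part in splicing. The gene (ENSG00000221978.13) lies on chromosome 1, from 1385711 to 1399335, on the minus strand. Its sites fell in 2 places. In intron 5 of the canonical transcript, which is 2530 nt long, sites at 1391271 and 1391219 lay only 52 nt apart, 406 and 354 nt before the next exon. The GGAUU at 1391271 was listed at 8.51% and 7.29%, and the AGACA at 1391219 at 5.13% and 15.4%. The first level of the AGACA site was close to the 5% minimum that the methods set on mutation frequency. Thus, 2 neighbouring adenines differed in direction, with a second level minus first of -1.22 percentage points at the upstream adenine and 10.3 at the downstream adenine. Both are intronic in the canonical mRNA, but they lay in an exon of 5 of the 10 annotated CCNL2 transcripts that span them, of which 3 are of the retained intron type and 1 is of the nonsense-mediated decay type.

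The remaining CCNL2 site, a CGACU at 1386872, was in the 3′ UTR of the last exon, 359 nt after the stop codon. Its levels were 14.4% and 29.4%, the highest first and the highest second level of the gene. CGACU misses DRACH by its first base, and no other site of the table had this 5-mer.

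DDX17 encodes a DEAD-box RNA helicase, a close relative of DDX5, that acts in splicing and in transcription. The gene (ENSG00000100201.23) spans 38483438 to 38507660 on the minus strand of chromosome 22. A site at the far end of the 3′ UTR carried the highest levels of the gene. This AGACU at 38483570 was listed at 28% and 32.3%, 2365 nt after the stop codon and 132 nt before the end of the canonical transcript. A second AGACU, 9 nt upstream of it, was not listed, nor was an AGAUG 8 nt downstream.

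Both other DDX17 sites lay in intron 11, which is 3940 nt long and precedes the penultimate exon. The GAACU at 38490006 was listed at 5.94% and 6.58%, both close to the 5% minimum. At 38488491, a UUACC 376 nt before the next exon was listed at 8% and 20.5%. These sites were exonic in transcripts of the retained intron type and in no other type. The exon of 1 such transcript, 4237 nt long, covers the whole intron and joins the exons on either side. In neither 5-mer is the base before the site a G, whereas G precedes 90.9% of all listed sites. UUACC was found at no other site, and GAACU at 2 sites in all.

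PNISR encodes a serine/arginine-rich nuclear protein known as a partner of pinin. The gene (ENSG00000132424.17) lies on chromosome 6, from 99397629 to 99425331, on the minus strand. Its AGACC at 99422849 was listed at 16.1% and 80%, and the second level was the second highest of the 275 sites. The gap between the levels, 63.9 percentage points, was the widest of the 9 sites. The site lay in intron 1, of 8786 nt, at 2366 nt from the preceding exon. It was intronic in each of the 11 annotated transcripts that span it. Its sequence is not unique. The 31 nt around the site have 2 exact copies in hg38 and 7786 further places that differ at 1 to 3 bases. In those near copies, the base at the position of the site was G in 74.7% and A in 23.2%. Reads from a copy with another base would count as mutated if placed here, with or without MjDim1 treatment. The authors' call required a higher mutation frequency with MjDim1 than without it. The part of such reads in the 80% was not tested. At 8 of the 9 sites, all but that of PNISR, the 31 nt occurred once in hg38, as they did at 81.8% of all sites, and those 8 had no further copy with up to 3 mismatches.

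ACIN1 encodes acinus, which binds RNPS1 and SAP18 in a complex attached to the exon junction complex. The gene (ENSG00000100813.15) spans 23058564 to 23095614 on the minus strand of chromosome 14. It had an AGACU at 23068435, listed at 87.5% and 50%. The first level was the highest of the 275 sites, and the second was 37.5 percentage points lower. The site lay in intron 9 of the canonical transcript, 1041 nt from the preceding exon and 2427 nt before the following exon. It was exonic in 3 of the 12 transcripts that span it, 1 of them of the nonsense-mediated decay type and none of the retained intron type. The exons of these transcripts, 74 to 1358 nt long, do not overlap any canonical exon. In the annotation of these 3 transcripts, the site is thus in alternative exons within the intron rather than in an exon extended by intron retention. Which transcripts the reads came from is unknown. In the decay-type transcript it counts as 3′ UTR.

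CASC3 (also called MLN51 or Barentsz) encodes a component of the exon junction complex that binds EIF4A3. The gene (ENSG00000108349.17) lies on the plus strand of chromosome 17, from 40140318 to 40172171, and is the only member on the plus strand. Its AGACU at 40163719 was the only one of the 9 sites in a coding exon, at the first base of codon 342. The levels were 72.7% and 64.3%, which ranked 3 and, tied with other sites, 5 among the 275 sites. The site was in exon 7, of 686 nt, at 238 nt from the start of the exon and 447 nt from its end.

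**Figure D1:**
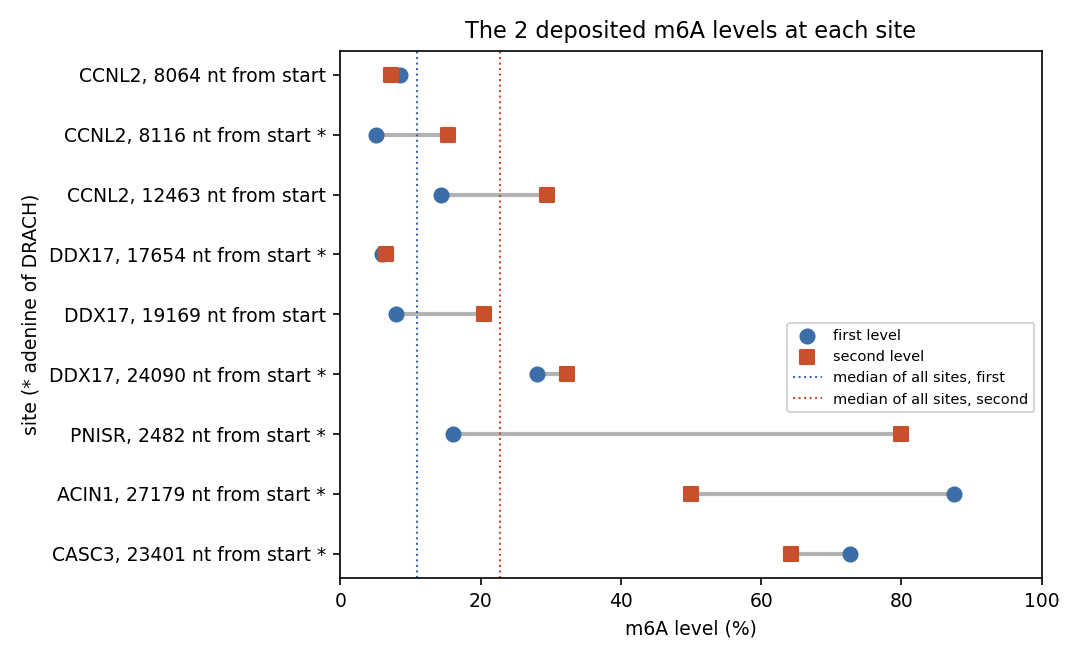
First (circles) and second (squares) m6A level in percent at each of the 9 sites, ordered by gene and by distance from the start of the gene, with dotted lines at the medians of all sites. Levels ran from 5.13% to 87.5% for the first and from 6.58% to 80% for the second, and the widest gaps were at PNISR and ACIN1, in opposite directions.

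**Figure D2:**
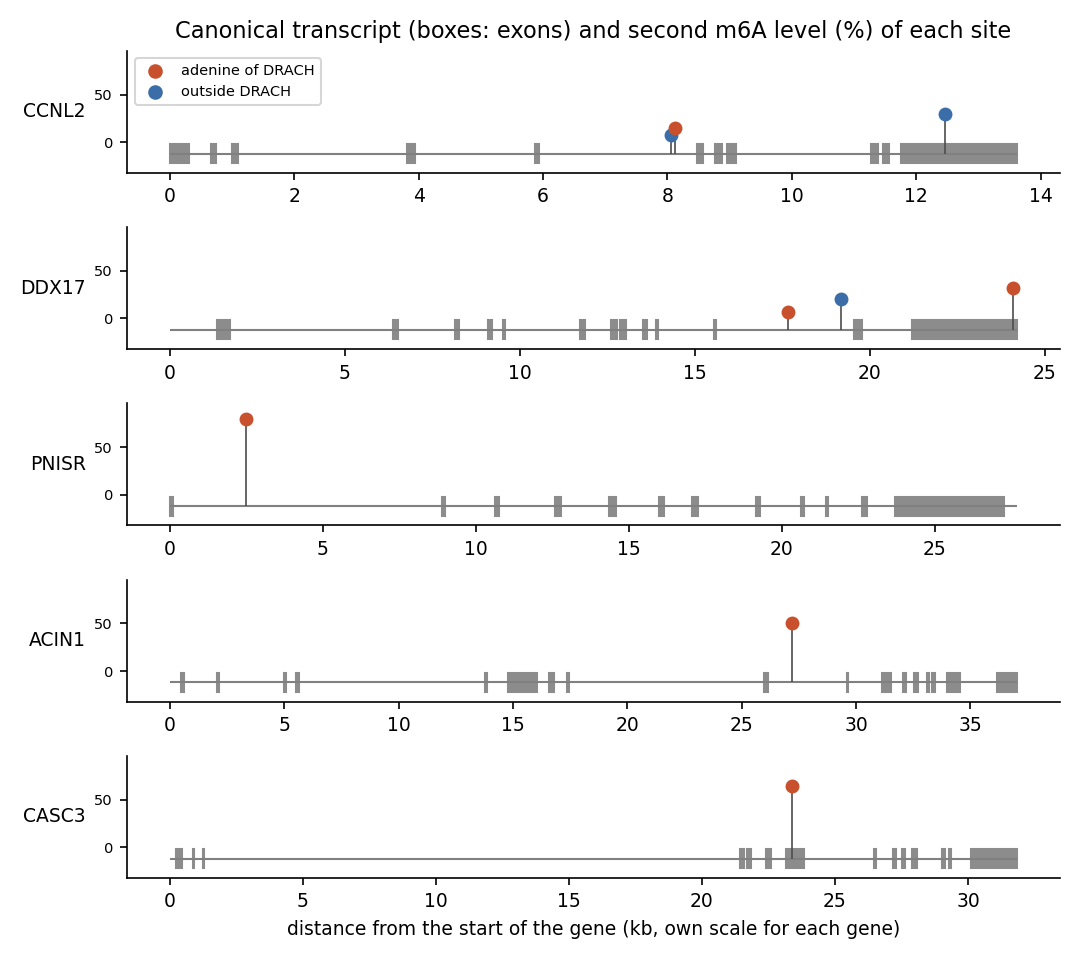
Canonical transcript of each gene against the distance from the start of the gene in kb, with exons as boxes and the second m6A level in percent as the height of each site. The PNISR site lay at 8.96% of the length of its gene, and the other 8 lay at 59.2% or beyond.

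Over the 9 sites the median first level was 14.4%, beside 10.9% over all 275 sites, and the median second level was 29.4% beside 22.7%. All members are protein-coding genes, and the other 141 sites in protein-coding genes had closer medians of 13% and 26.3%. The members' median first level was 22.1% without CCNL2, and the median over their genes of the second level was 50%. Without DDX17 the medians were 15.3% and 39.7%. Leaving out ACIN1, PNISR or CASC3 alone gave 11.46% and 24.96% each time, below the medians of the other sites in protein-coding genes. The higher medians of the members thus depended on single sites. The members did not share a level. The first level was below 10% at 4 sites, all in introns of CCNL2 and DDX17, and it was 72.7% or more at ACIN1 and CASC3. Both levels were at least 20% at 3 of the 9 sites and at 38 of the 275, and these 3 were the AGACU sites of ACIN1, CASC3 and DDX17. The second level was higher than the first at 6 of the 9 sites, against 85.8% of all sites, and at 3 of the 6 left without DDX17. It was lower at ACIN1, at CASC3 and at the CCNL2 GGAUU, 3 of 9, against 13.8%. A second level at least 2 times the first was found at 4 of 9, against 42.5%, and at 2 of 6 without CCNL2. These 4 were the CCNL2 AGACA and CGACU, the DDX17 UUACC and the PNISR AGACC. The deposited ratio of second to first level had a median of 1.15 over the 9 sites and 1.73 over all sites. Both levels entered the choice of the genes, and nothing is read from these counts.

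**Figure D3:**
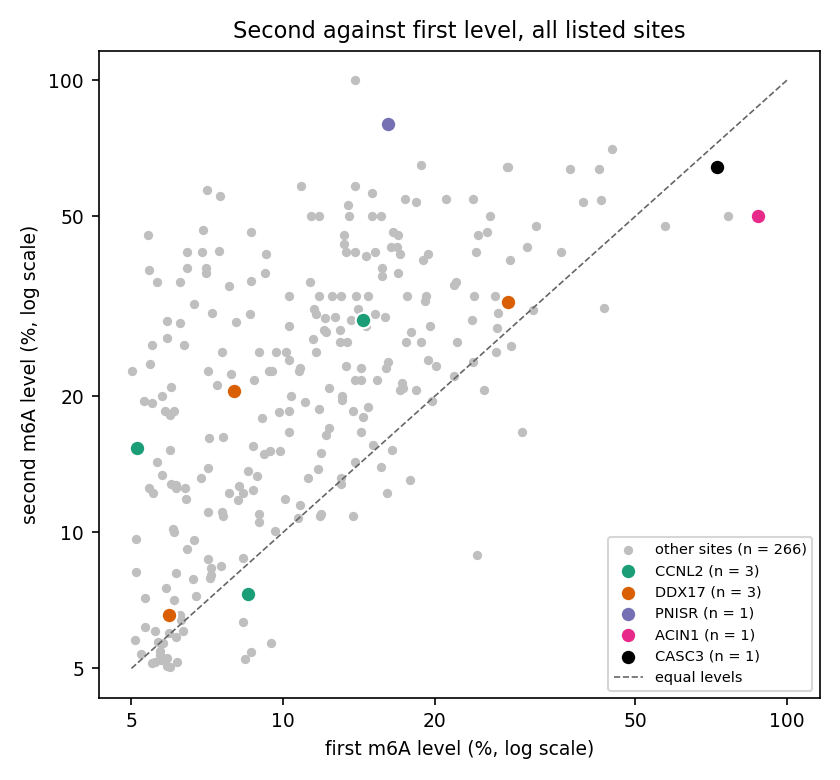
Second against first m6A level in percent, on log scales, for the 9 sites by gene and for the other 266 sites, with a dashed line at equal levels. ACIN1, CASC3 and 1 CCNL2 site lie below the line, and PNISR lies far above it.

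Motif class was known when the genes were chosen, so it is given without a test as well. DRACH was centred on the listed adenine at 6 of the 9 sites, against 33.8% of all sites. The 6 DRACH sites had median levels of 22.1% and 41.1%, and the 3 sites outside DRACH had medians of 8.51% and 20.5%. The groups overlapped. The DRACH sites of CCNL2 (5.13%) and DDX17 (5.94%) had the lowest first levels of the 9. The sequences shown above thus fall into 3 sets: AGACU in ACIN1, CASC3 and the 3′ UTR of DDX17, other DRACH forms in CCNL2, DDX17 and PNISR, and forms outside DRACH in CCNL2 and DDX17.

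AGACU was at 3 of the 9 sites, against 12.7% of all sites. At these 3 the first level was 28%, 72.7% and 87.5%, and the second was 32.3%, 64.3% and 50%. The other 32 AGACU sites had a median first level of 11.0% (range 5.31% to 76.5%) and a median second level of 19.8% (range 5.15% to 64.3%). Those of the 32 in protein-coding genes, 14 sites, had medians of 11.5% and 26.2%. Among the 35 AGACU sites, ACIN1 ranked 1, CASC3 ranked 3 and DDX17 ranked 5 by the first level, and they ranked 5, 1 and 11 by the second. By the first level DDX17 was tied with PNN, and by the second CASC3 was tied with PNN and PLEKHB2 and ACIN1 with CEP72. The second level was at least 2 times the first at none of the 3 members and at 12 of the other 32. In protein-coding genes it was so at 8 of the other 14. The AGACA of CCNL2, in contrast, had the lowest first level of the 12 AGACA sites, and its GGAUU had the lowest first and second level of 6 GGAUU sites.

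**Figure D4:**
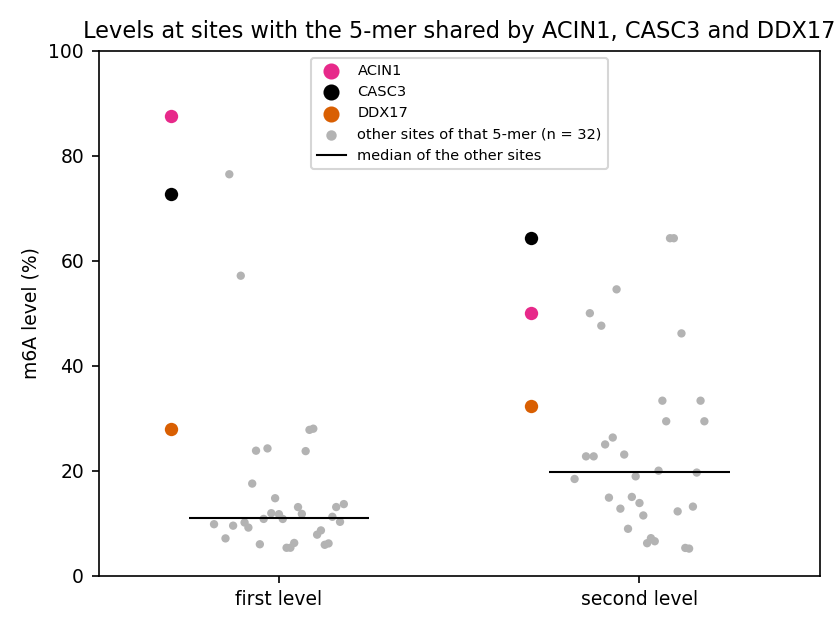
First and second m6A level in percent at the 35 AGACU sites, with ACIN1, CASC3 and DDX17 in colour, the other 32 sites in grey and a line at the median of those 32. The 3 coloured points are above that line for both levels, and the DDX17 point is nearest to the bulk of the sites.

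The listed sites were a small part of the possible ones. The 5 genes contain 2270 DRACH sequences from their start to their end, of which 6 were listed. They contain 151 AGACU, of which 3 were listed. The most frequent 5-mer of the table, AGAUG with 48 sites, occurs 178 times in the 5 genes, and none of the 9 sites had it. How many of these adenines had enough reads to be called is unknown.

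Most of the members were intronic in the canonical transcript, a share close to that of all sites in protein-coding genes. Most of these intronic members were exonic in another annotated transcript. Of the 9 sites, 6 lay in canonical introns, against 69.3% of the 150 sites in protein-coding genes. Among the 6, the 5 sites of CCNL2, DDX17 and ACIN1 lay in an exon of another transcript of the same gene, against 24.0% of the 104 sites in canonical introns of protein-coding genes. The count was 3 of 4 without CCNL2 and also without DDX17. PNISR was the exception. The intronic sites of CCNL2 shared an intron, and so did those of DDX17. Transcripts of the retained intron type held 6 of the 9 sites in an exon, against 28.0% of the sites in protein-coding genes, and 4 of these 6 were the intronic sites of CCNL2 and DDX17. All 5 genes have transcripts of this type in the annotation, between 4 and 10 each. The number of annotated transcripts bears on such a count, since a gene with more transcripts has more places called exonic, and its part was not tested. Whether the reads came from unspliced pre-mRNA, from a retained intron or from an alternative exon cannot be told apart in a table of single adenines.

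The distance to the nearest splice junction of the canonical transcript ran from 238 to 2870 nt. For the 3 exonic sites it was 238 nt in CASC3, 710 nt in CCNL2 and 2870 nt in DDX17. The other 30 exonic sites of protein-coding genes had a median of 358 nt, with a range of 11 to 3144 nt, so the distances of the members lie inside the range of the others. For the 6 intronic sites the distance was 354 to 2366 nt, with a median of 723.5 nt. The other 98 intronic sites of protein-coding genes had a median of 2120.5 nt and a wide range of 37 to 247915 nt. The length of an intron limits this distance, and the introns with member sites were 2530 to 8786 nt long. Intron length at the other sites was not compared, so nothing is read from the medians.

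GCAUG, searched as these 5 letters on the strand of the RNA, lay wholly within 50 nt of 5 of the 9 sites, against 33.5% of all sites, and of 2 of the 6 sites outside CCNL2. Its middle base was 6 nt upstream of the DDX17 GAACU, and 20 nt upstream and 10 nt downstream of the CASC3 AGACU. The nearer match of each can be read in the lines above. Next to the CCNL2 CGACU it was 38 nt upstream. The longer UGCAUG, which contains GCAUG, lay within 50 nt of both intronic CCNL2 sites, 2 of 9 against 17.5% of all sites. It was 19 nt upstream of the GGAUU and 30 nt downstream of the AGACA, so that a UGCAUG flanked the pair on each side. The stretch from the upstream match to the site is shown with the match and the 5-mer in capitals.
CCNL2, UGCAUG to position 1391271: UGCAUGuuucucugcacuauGGAUU
ACIN1 had a GCAUG only at 86 nt, and none was within 100 nt of the PNISR site or of the DDX17 sites at 38488491 and 38483570. A match shows only that the letters are present. Of the 5 sites with GCAUG, the CASC3 site had levels of 72.7% and 64.3% and the DDX17 GAACU had 5.94% and 6.58%.

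The members were placed among 188 genes of splicing, the exon junction complex and m6A metabolism, in 7 lists. Of the 183 genes other than the members, 11 held a site on their own strand, 1 each, and the same 11 were found when either strand was allowed. By list, sites were found outside the members in 1 of the 22 genes of the exon junction complex and its partners (PNN), 2 of 35 SR and RS-domain genes (PPIG and SRRM2), 2 of 16 cyclin, CDK and splicing kinase genes (PRPF4B and SRPK2), 2 of 12 helicase genes (DDX5 and DDX21), 1 of 40 core spliceosome genes (SNRPB), 3 of 47 genes of hnRNPs and other regulators (HNRNPD, HNRNPH1 and MBNL1) and 0 of 16 genes of m6A writers, erasers and readers. These counts include the 5 members in the list sizes. Over all 275 sites, 149 genes held a site. The share of all annotated genes with a site was not computed, so whether the list counts are high or low is not known. The first level of the 11 sites ran from 5.08% to 28% with a median of 13.5%, and the second ran from 5.77% to 100% with a median of 23.5%. The second was higher at 10 of the 11, and 3 of the 11 were DRACH. The 31 nt of the DDX21 site have 182 exact copies and those of the PPIG site 131, and their second levels were 100% and 58.3%.

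The close relatives of the members differed in whether they had a site. DDX5, the paralogue of DDX17, had a GGACU at 64501850 on chromosome 17, minus strand, listed at 14.3% and 16.7%. Like the intronic DDX17 sites, it lay in a canonical intron, 160 nt from the nearest exon, and in the exon of transcripts of the retained intron type, 10 of the 26 transcripts that span it. Unlike the DDX17 sites, it was also exonic in 1 transcript of the nonsense-mediated decay type. PNN, which encodes pinin, the partner of PNISR and of RNPS1, had an AGACU in its 3′ UTR at 39181996 on chromosome 14, plus strand. It was listed at 28% and 64.3%, beside 28% and 32.3% for the AGACU in the 3′ UTR of DDX17. Its sequence is shown in the same form.
PNN, position 39181996: uuuggaaaauacAGACUguuuguuuacca
No listed site lay in CCNL1, RNPS1 or EIF4A3, the relative of CCNL2 and the binding partners of ACIN1 and CASC3.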

How the data were processed

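The 4 libraries were assigned to conditions by their GEO titles. Per the labels and the methods, the authors clipped adapters with cutadapt 2.10, removed duplicates by molecular identifiers and aligned with STAR 2.7.3a to hg38. They kept adenines that passed limits on P value, coverage, mutated reads and mutation frequency. The mutation frequency with MjDim1 treatment also had to exceed that without treatment by over 5%. The authors deposited 2 m6A levels in percent per site and their ratio, which equals the second divided by the first at every site. Adenines under the 5% minimum are not used here, so a low level is one that passed it.

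Sites were read with Python 3.11.15 and pandas 2.3.3, and hg38 sequence with pysam 0.24.0. Gene parts came from GENCODE release 44 on the Ensembl canonical transcript, and copies of 31 nt were counted on both strands of the primary chromosomes. The summary step was tested on simulated data. Figures used matplotlib 3.10.9. No test was run. Every site of the 5 genes is named, as is every site of the gene lists. The members and the lists were chosen with earlier results of these data known. Alternatives were gene spans, transcripts, motif windows and leaving out each gene.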

Additional observations from a re-analysis of the deposited data

How the results depend on the processing

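Of 79 alternative values, 68 stayed within 1.5 times the reported value. Leaving out CCNL2 moved the median first level to 22.1%, the sites with a second level at least 2 times the first to 2, the intronic sites that are exonic elsewhere to 3 and the sites near GCAUG to 2. Leaving out DDX17 left 3 sites with a higher second level and 3 intronic sites that are exonic elsewhere. Both genes hold 3 of the 9 sites, so their loss lowers such counts by construction. The mean first level was 27.4%, and the median over genes of the second level was 50%. Intronic sites numbered 1 over all transcripts and 3 without the retained intron type, since other transcripts have exons at these positions. GCAUG lay within 20 nt of 2 sites. No alternative changed the number of member sites by over 1.5 times. No paired analysis was possible because each condition has 1 library and the levels are not tied to libraries. With no read counts, what depth limits cannot be computed.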
